A study of Danio rerio with 6 samples.

Results

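Visual opsins and the genes that turn light into an electrical signal were measured in whole zebrafish (Danio rerio) larvae with or without a homozygous knockout of hspd1, the gene of the mitochondrial chaperonin HSP60. The genes were chosen by name, and those described here are the rows of the count tables whose gene symbol, ignoring capitals, is opn1sw1, opn1sw2, opn1mw1, opn1lw2, gnat1, gnat2, pde6c, arr3a or rpe65a. Of these 9 symbols, 6 were found, each on 1 of the 25859 genes. The symbols opn1sw1, arr3a and rpe65a are not in the symbol table at hand, which instead lists 1 gene as OPN1SW, 2 as ARR3 and 3 as RPE65, the human names of the same families. Those 6 genes are described too, under the listed symbol and ID, which gives 12 genes in all. Which zebrafish copy each of the ARR3 and RPE65 genes is was not given in the sources used here.

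The control group was hspd1+/+ and the knockout group hspd1-/-, both at 5 days post fertilization (dpf), with no treatment named beyond the genotype. Both were kept in a buffer with methylene blue and anesthetized with tricaine for the fin clip used in genotyping. Larvae of both groups came from in-crosses of F4 heterozygous carriers (hspd1+/-), so the parents were carriers in both groups. Each library was made from 5 larval bodies pooled after genotyping, without the tip of the caudal fin, and there were 3 pools per genotype. The nature of the knockout allele is not given in the sources used here. The labelled tissue is the whole embryo, and all 12 genes had reads in every pool.

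In rods and cones, light changes the shape of an opsin, which activates the G protein transducin. Transducin in turn releases the phosphodiesterase PDE6 from its inhibitory subunit, PDE6 lowers cyclic GMP, and cyclic GMP-gated channels close. Kinases and arrestins then switch the opsin off, and the enzyme RPE65 regenerates the light-sensitive chromophore. Rods use the transducin subunit gnat1, whereas cones use gnat2, pde6c and cone arrestin. The larval zebrafish retina is rich in cones, and the pineal gland holds photoreceptors as well.

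Libraries held 18517874 to 20331675 counts. Values per pool are given in the order of pools 1, 2 and 3 and in CPM, a count scaled to the size of its library, with scaling by TMM. The targeted gene HSPD1 stood at 124, 133 and 132 CPM in the controls and at 73.4, 67.9 and 82.3 CPM in the knockouts. Its log2 fold change was −0.79 (SE 0.11), with a Benjamini-Hochberg adjusted p = 0.00162 in edgeR's quasi-likelihood test. Every knockout pool lay below every control pool, and transcript of the gene remained in the knockouts. All fold changes are knockout over control, and CPM are not divided by transcript length, so levels of different genes are not ranked against each other.

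None of the 12 genes passed the test at an adjusted p of 0.05, in an experiment in which 4.01% of all 21602 tested genes did (edgeR), 1.47% higher and 2.54% lower. At an unadjusted p under 0.05, 2 of the 12 were lower and 0 were higher, against 8.81% of all tested genes lower, 6.79% higher and 15.6% in either direction. DESeq2 called 1 of the 12, PDE6C, against 4.99% of the 21931 genes it tested, and limma-voom called 0, against 3.76% of all genes. The fold change was below 0 for 8 of the 12 genes, against 50.9% of all genes, with a median of −0.16 on the log2 scale against −0.01. It was below 0 for 6 of the 6 genes found by symbol (median −0.32), with GNAT1 at −0.02. Of the 6 genes listed under human names, 2 were below 0 and 4 above (median 0.05). The median of the 12 genes was −0.31 without control pool 1, −0.26 without knockout pool 1, −0.09 without control pool 2 and −0.08 without control pool 3. All 12 passed the filter on low counts. In whole larvae, fewer photoreceptor cells and less RNA per cell cannot be told apart.

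**Figure D1:**
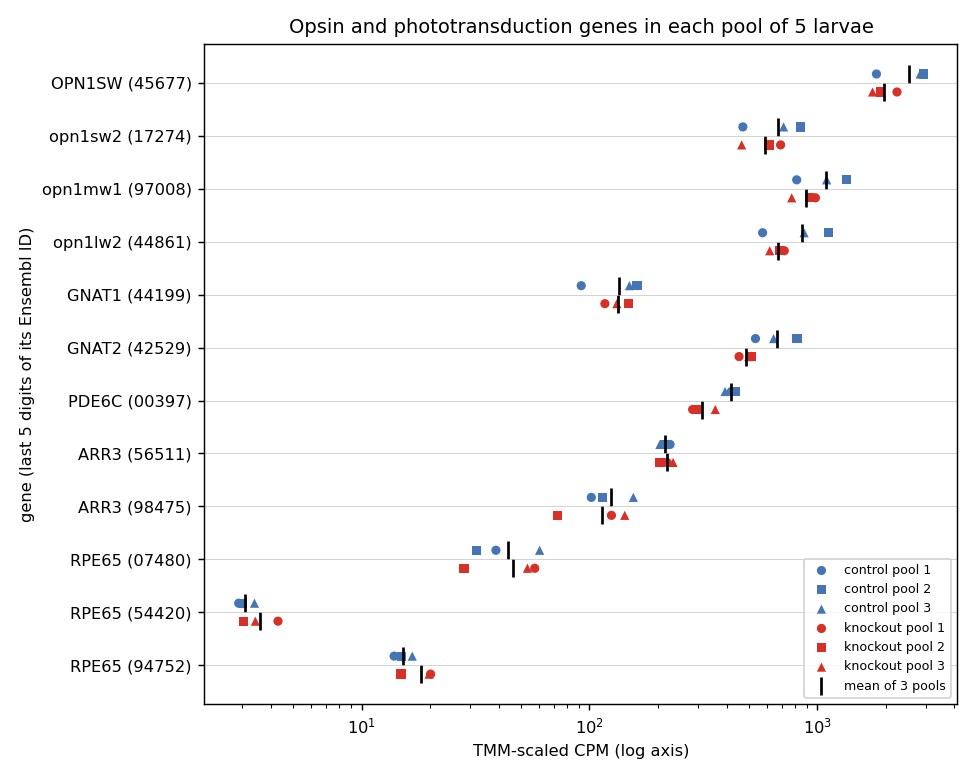
TMM-scaled CPM (log axis) of the 12 genes in each of the 6 pools, with control pools in blue, knockout pools in red, the pool number as the marker shape and the mean of 3 pools as a black bar. Only GNAT2 and PDE6C have knockout pools that all lie below all control pools, at 454 to 513 CPM for GNAT2 and 284 to 357 CPM for PDE6C.

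The cone opsins moved together from pool to pool, and that movement was as large within the control group as between the genotypes. Their summed level over 4 genes was 3680, 6230 and 5520 CPM in the controls (mean ± SD 5140 ± 1320 CPM, n = 3 pools). In the knockouts it was 4630, 4120 and 3610 CPM (4120 ± 512 CPM, n = 3 pools). Control pool 1 was low, control pool 2 was high, and 2 of the knockout pools lay within the control range, with knockout pool 3 just below it.

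OPN1SW (ENSDARG00000045677), a short-wavelength cone opsin, was measured at 1820, 2920 and 2830 CPM in the control pools and at 2240, 1900 and 1750 CPM in the knockout pools. Control pool 1 lay among the knockout pools and the other control pools lay above them. Its log2 fold change was −0.36 (SE 0.18, 95% interval −0.77 to 0.04, edgeR adjusted p = 0.386). For opn1sw2, the opsin of blue-sensitive cones, the pools were at 472, 843 and 712 CPM in the controls and 691, 614 and 466 CPM in the knockouts. The control range covered knockout pools 1 and 2, and knockout pool 3 was next to control pool 1. The log2 difference was −0.19 (SE 0.21, 95% interval −0.65 to 0.26, edgeR adjusted p = 0.712), and 0.01 without control pool 2.

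For opn1mw1, one of the tandem opsin genes of green-sensitive cones, control pools were at 813, 1350 and 1100 CPM and knockout pools at 982, 922 and 773 CPM. Again control pool 1 fell among the knockouts. Its log2 difference of −0.28 (SE 0.18, 95% interval −0.68 to 0.11) did not pass (edgeR adjusted p = 0.488). For opn1lw2, an opsin of red-sensitive cones, the values were 576, 1120 and 876 CPM in the controls and 717, 683 and 619 CPM in the knockouts. This was a log2 difference of −0.35 (SE 0.20, 95% interval −0.79 to 0.10, edgeR adjusted p = 0.455). Control pool 1 lay below all knockout pools and the other control pools above them. The knockout pools lay close together, with a coefficient of variation of 7.37%, and the control pools far apart, at 31.7%.

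The tandem copies of the last 2 opsins were low, and reads could be split among such similar genes. opn1mw2 was measured at 4.36, 7.91 and 5.35 CPM in the controls and at 4.30, 3.40 and 2.73 CPM in the knockouts, so the groups did not overlap, but the log2 difference of −0.75 (SE 0.24) did not pass (edgeR adjusted p = 0.145). opn1lw1 stood between 0.207 and 0.764 CPM, with overlapping groups and a log2 difference of −0.47 (edgeR adjusted p = 0.672). opn1mw3 and opn1mw4 had 0 or 1 count per pool and were not tested.

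**Figure D2:**
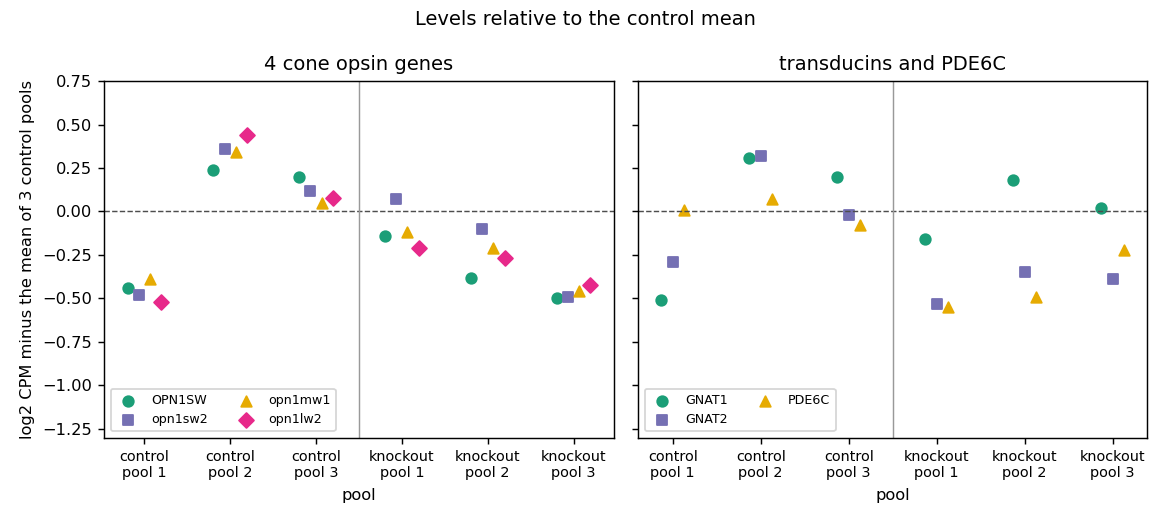
Log2 CPM of 7 of the genes in each pool, minus the mean of the 3 control pools (dashed line at 0), for the cone opsins on the left and for GNAT1, GNAT2 and PDE6C on the right. The 4 cone opsins are all low in control pool 1 (−0.52 to −0.39) and all high in control pool 2 (0.24 to 0.44), while GNAT2 and PDE6C are at −0.55 to −0.22 in the knockout pools.

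The proportions among the 4 cone opsins differed little between pools. The OPN1SW share of their summed counts was 49.4%, 46.9% and 51.3% in the controls and 48.4%, 46.1% and 48.5% in the knockouts, so the knockout pools lay within or just below the control range. The opn1sw2 share was 12.8%, 13.5% and 12.9% against 14.9%, 14.9% and 12.9%, above the control range in knockout pools 1 and 2. The ratio of opn1mw1 to OPN1SW was 0.388 to 0.461 in the controls and 0.438 to 0.486 in the knockouts, and that of OPN1SW to opn1lw2 was 2.61 to 3.24 and 2.78 to 3.13.

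The transducin alpha subunits differed from each other in how their groups lay. GNAT1, the rod subunit, was measured at 92.1, 162 and 150 CPM in the control pools and at 117, 148 and 132 CPM in the knockout pools. All knockout pools lay inside the control range, with a log2 difference of −0.02 (SE 0.19, 95% interval −0.44 to 0.39, edgeR adjusted p = 0.966). Control pool 1 was the lowest of all pools, as it was for opn1lw2.

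GNAT2, the cone subunit, was measured at 536, 815 and 644 CPM in the controls and at 454, 513 and 501 CPM in the knockouts. Every knockout pool lay below every control pool. The means were 665 ± 141 CPM and 489 ± 31.0 CPM (n = 3 pools each), and the log2 difference of −0.44 (SE 0.15, 95% interval −0.78 to −0.11) did not pass over all genes (edgeR adjusted p = 0.168). It passed without control pool 1 (log2 fold change −0.57, adjusted p = 0.0432), and the adjusted p was 0.52 at its highest over the alternatives. Groups that did not overlap were found for 2 of the 12 genes, both lower in the knockouts, against 10.6% of all tested genes lower, 10.8% higher and 21.4% in either direction. The ratio of GNAT1 to GNAT2 was 0.172, 0.199 and 0.234 in the controls and 0.259, 0.289 and 0.264 in the knockouts, and was higher in each knockout pool than in any control pool. The ratio of OPN1SW to GNAT2 had overlapping groups, at 3.39, 3.58 and 4.4 in the controls and 4.93, 3.7 and 3.49 in the knockouts. Neither ratio was tested.

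PDE6C, the catalytic subunit of the cone phosphodiesterase, was the gene of the 12 with the smallest p. It was measured at 420, 436 and 394 CPM in the control pools and at 284, 296 and 357 CPM in the knockout pools. The groups did not overlap, and knockout pool 3 was nearest to the controls. The means were 417 ± 20.9 CPM and 312 ± 39.3 CPM (n = 3 pools each), 1.33-fold lower in the knockouts, with a log2 difference of −0.42 (SE 0.12, 95% interval −0.68 to −0.15). This did not pass with edgeR (adjusted p = 0.0944) but did with DESeq2 (adjusted p = 0.0143). Over all alternatives its adjusted p ran from 0.0143 to 0.303 and its log2 fold change from −0.51 to −0.35.

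The inhibitory subunit gene pde6ha, named for the cone form, lay the other way. It was measured at 64.5, 63.3 and 39.0 CPM in the controls and at 90.9, 82.0 and 83.3 CPM in the knockouts. All knockout pools were above all control pools, and control pool 3 was the lowest. Its log2 difference of 0.62 (SE 0.17) had an edgeR adjusted p = 0.0831, and it passed with DESeq2 (0.012) and without control pool 1 (0.0439). The gene listed as PDE6H (ENSDARG00000056791) had overlapping groups at 13.9 to 43.0 CPM and a log2 difference of −0.25 (edgeR adjusted p = 0.781). The rod phosphodiesterase genes PDE6B (ENSDARG00000011671) and PDE6G (ENSDARG00000101984) stood at log2 differences of 0.10 and 0.04 (adjusted p = 0.728 and 0.914). Of the channel genes, the rod-type CNGA1 (ENSDARG00000012125 and ENSDARG00000029898), cngb1a and cngb1b stood at −0.29, −0.15, −0.12 and −0.11. The cone-type CNGA3 (ENSDARG00000012297 and ENSDARG00000070726), cngb3.1 and cngb3.2 stood at −0.25, −0.04, 0.47 and −0.01. None of these channel genes passed (edgeR adjusted p = 0.431 to 0.969).

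Arrestins bind the activated opsin and end its signal. ARR3 (ENSDARG00000056511), a gene with the symbol of cone arrestin, was at 226, 215 and 204 CPM in the control pools and at 219, 204 and 233 CPM in the knockout pools. The pools of both groups lay within the same narrow range, with coefficients of variation of 5.18% and 6.58%. The log2 difference was 0.02 (SE 0.10, edgeR adjusted p = 0.941), and its 95% interval of −0.21 to 0.25 was the narrowest of the 12 genes. The other ARR3 gene (ENSDARG00000098475) was measured at 102, 114 and 156 CPM in the controls and at 125, 72.3 and 143 CPM in the knockouts. Knockout pool 2 was lowest, control pool 3 was highest and the groups overlapped, with a log2 difference of −0.13 (SE 0.23, 95% interval −0.64 to 0.39, edgeR adjusted p = 0.842).

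RPE65 is the isomerase of the visual cycle, best known from the retinal pigment epithelium. The RPE65 gene with the most counts (ENSDARG00000007480) was measured at 38.9, 31.9 and 60.5 CPM in the control pools and at 57.6, 28.2 and 53.5 CPM in the knockout pools. Pool 2 of either genotype was the lowest of its group, and the groups overlapped. Its log2 difference of 0.08 (SE 0.27, 95% interval −0.52 to 0.69) did not pass (edgeR adjusted p = 0.915). RPE65 (ENSDARG00000094752) was at 13.9, 15.0 and 16.7 CPM against 20.1, 14.9 and 19.8 CPM, a log2 difference of 0.27 (SE 0.14, 95% interval −0.04 to 0.57, edgeR adjusted p = 0.397). Knockout pool 2 lay among the controls, and the other knockout pools were above them. RPE65 (ENSDARG00000054420) stood at 3.09 ± 0.261 CPM and 3.58 ± 0.653 CPM (n = 3 pools each), a log2 difference of 0.21 (edgeR adjusted p = 0.645).

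**Figure D3:**
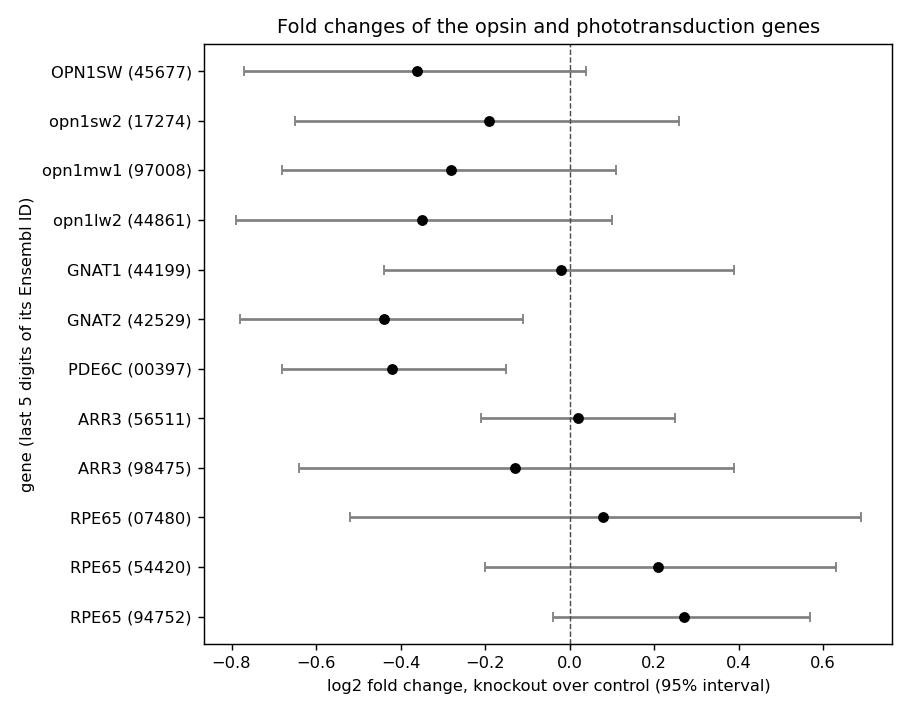
Log2 fold change of the 12 genes, knockout over control (points), with 95% intervals from the edgeR fit that are not adjusted for the number of genes (bars). The intervals of GNAT2 (−0.78 to −0.11) and PDE6C (−0.68 to −0.15) lie below 0 and those of the other 10 genes hold 0.

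The rest of the light cascade and visual cycle was described by 4 lists (visual opsins, activation, shut-off with calcium feedback, and visual cycle), which hold the 12 genes and 74 further tested genes. None of these 86 genes passed with edgeR. At an unadjusted p under 0.05, 2 were higher and 10 lower, which is 14% of them against 15.6% of all tested genes. These counts were 2 higher and 18 lower without control pool 1, 1 and 4 without control pool 2, and 2 and 6 without control pool 3. They were 1 and 12 without knockout pool 1, 5 and 7 without knockout pool 2, and 1 and 7 without knockout pool 3. With upper-quartile scaling they were 4 and 5, with DESeq2 1 and 14, and with limma-voom 1 and 8. The shares of all tested genes at this unadjusted p are not given here for the alternatives. The counts under the alternatives therefore cannot be set against all genes. DESeq2 called 3 of the 86 genes (PDE6C and gucy2d lower, pde6ha higher), against 4.99% of all genes, and limma-voom 0. With edgeR 4 passed without control pool 1, where 981 of 21790 tested genes did. Without knockout pool 3, 1 passed, where 673 of 21799 tested genes did. The median log2 fold change of the 74 further genes was −0.11. By list, the medians were −0.36 for 6 visual opsin genes, −0.11 for 25 activation genes, −0.13 for 27 shut-off and feedback genes and 0.05 for 28 visual cycle genes.

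Among the activation genes, 1 beta and 1 gamma subunit gene of the cone transducin type had control pool 1 among the knockout pools, as the cone opsin OPN1SW did. gnb3b was at 465, 758 and 669 CPM in the controls and 538, 471 and 464 CPM in the knockouts (log2 difference −0.36, edgeR adjusted p = 0.336). GNGT2 (ENSDARG00000103543) was at 218, 339 and 340 CPM against 255, 189 and 243 CPM (−0.38, adjusted p = 0.339). GNB3 (ENSDARG00000004358) had all control pools above the knockout pools, at 35.6 to 37.2 CPM against 32.4 to 35.4 CPM (log2 difference −0.10, adjusted p = 0.659). The other GNGT2 gene (ENSDARG00000010680) had all control pools within the knockout range, at 8.42 to 9.60 CPM against 7.78 to 10.2 CPM (−0.02, adjusted p = 0.965). These last 2 were named after their values were seen. The exchanger gene slc24a2, which carries calcium out of cones, was at 81.9, 66.7 and 84.3 CPM against 66.0, 53.8 and 59.7 CPM (−0.38, adjusted p = 0.156), and there the groups did not overlap. The source tissue of its reads was not measured. The other gene of that name, SLC24A2 (ENSDARG00000063158), had overlapping groups and a log2 difference of −0.02 (edgeR adjusted p = 0.974). gnb1a and gnb1b, beta subunits that are also expressed widely outside the eye, had log2 differences of −0.33 and −0.24 (adjusted p = 0.47 and 0.463), and both were lowest in knockout pool 1, at 152 and 175 CPM.

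Among the shut-off and feedback genes, gucy2d, a guanylate cyclase that restores cyclic GMP, had the smallest p. It was at 93.2, 80.6 and 85.2 CPM in the controls and 51.3, 61.2 and 74.5 CPM in the knockouts. The groups did not overlap, and knockout pool 1 was the lowest. Its log2 difference was −0.47 (SE 0.14, edgeR adjusted p = 0.104), and it passed with DESeq2 (0.029) and without knockout pool 3 (0.0346). The opsin kinase gene GRK7 (ENSDARG00000055534), of cones, was at 5.84, 9.33 and 6.78 CPM against 6.79, 4.13 and 3.94 CPM (−0.56, adjusted p = 0.29), and GRK7 (ENSDARG00000020602) had a log2 difference of −0.27 (adjusted p = 0.514). saga and sagb, arrestins of the rod type, stood at 0.13 and 0.06 (adjusted p = 0.616 and 0.896). GRK1 (ENSDARG00000058803), named for the opsin kinase of rods, was at 36.5, 41.5 and 35.6 CPM against 23.8, 33.6 and 35.5 CPM. The groups of GRK1 did not overlap (−0.29, edgeR adjusted p = 0.388).

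Further calcium sensors and regulators in this list had differences in both directions. The recoverin genes RCVRN (ENSDARG00000009637), RCVRN (ENSDARG00000019902) and rcvrna, which regulate the opsin kinases, had log2 differences of −0.07, −0.14 and −0.36, and RGS9 (ENSDARG00000037925), which speeds the shut-off of transducin, −0.29 (edgeR adjusted p = 0.823, 0.65, 0.31 and 0.304). The other RGS9 gene (ENSDARG00000045156) stood at 0.10 (edgeR adjusted p = 0.767). GUCA1A (ENSDARG00000100747) was at 0.819 to 1.42 CPM in the controls and 1.15 to 2.15 CPM in the knockouts. Its log2 difference was 0.71 (edgeR adjusted p = 0.312). The other GUCA1A gene (ENSDARG00000101567), GUCA1B, guca1c and guca1g stood at 0.09, 0.12, 0.03 and 0.18, and guca1d at −0.23 (edgeR adjusted p = 0.766 to 0.941). Without control pool 1, rcvrna passed (−0.52, adjusted p = 0.0225), as did the opsin kinase gene grk1b (−0.48, adjusted p = 0.0423).

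Visual cycle genes differed little between the groups. RBP4 and rbp4l, of the family of plasma retinol carriers, had log2 differences of 0.02 and 0.12, and rbp3, the retinoid carrier between photoreceptors and pigment epithelium, −0.20 (edgeR adjusted p = 0.966, 0.701 and 0.649). ABCA4 (ENSDARG00000057169) and ABCA4 (ENSDARG00000062661), named for the retinoid flippase of photoreceptor discs, had log2 differences of −0.38 and −0.29 (adjusted p = 0.288 and 0.471), and both were lowest in knockout pool 1. RDH11, a retinol dehydrogenase, was at 12.0, 16.9 and 12.0 CPM against 10.9, 10.6 and 9.93 CPM (−0.37, adjusted p = 0.261), with no overlap of the groups. RDH10 (ENSDARG00000058730), rlbp1a (a retinal-binding protein of the visual cycle), STRA6 (the retinol uptake receptor), RDH8 (ENSDARG00000105060) and RDH8 (ENSDARG00000028048) stood at 0.12, 0.05, −0.03, 0.14 and 0.23 on the log2 scale. The groups of this RDH10 gene did not overlap, with the knockouts higher. A further RDH8 gene (ENSDARG00000099217) stood at −0.37 (edgeR adjusted p = 0.483). Of the 28 visual cycle genes, 4 had knockout pools all above the control pools and 1 all below. The shares of all tested genes were 10.8% and 10.6%.

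**Figure D4:**
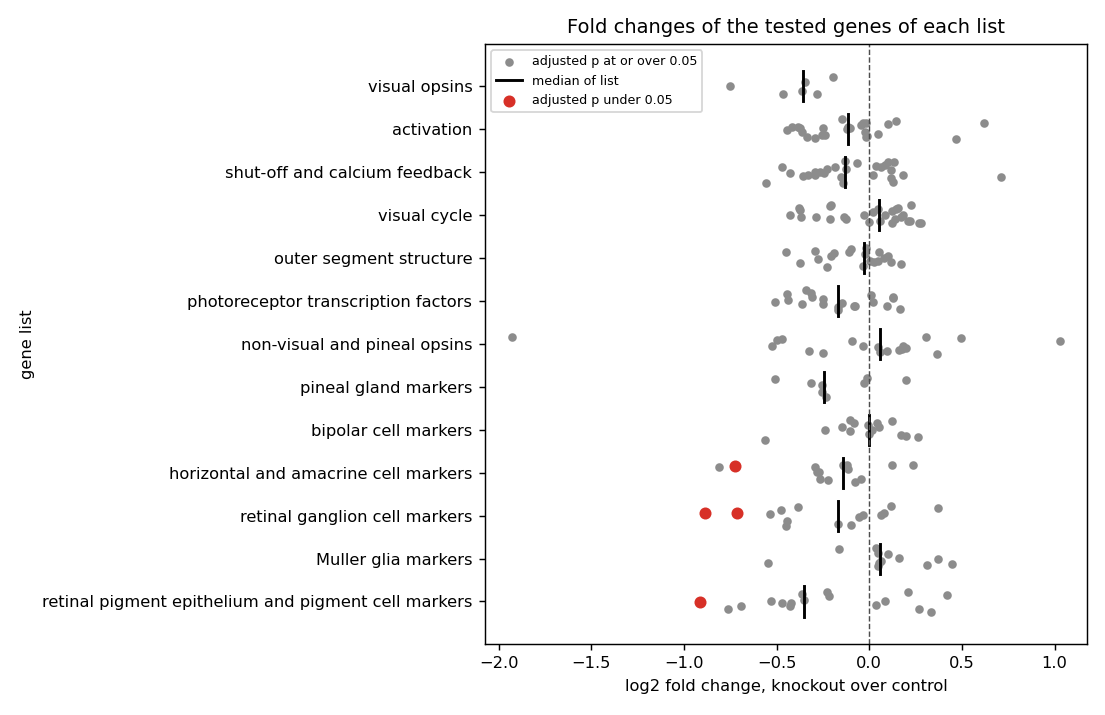
Log2 fold change, knockout over control, of every tested gene in 13 lists (points, spread vertically for display), with the median of each list as a black bar and genes with an edgeR adjusted p under 0.05 in red. The red points are TFAP2B, EOMES (ENSDARG00000006640), POU4F2 and OTX2, all below 0, and no gene of the light cascade is among them.

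The lists of photoreceptor structural genes and of photoreceptor transcription factors held no gene that passed, while OTX2, which was placed in the pigment epithelium list, did pass and is described with it. Of 20 outer segment genes, 0 passed with edgeR, DESeq2 or limma-voom (2 lower at an unadjusted p under 0.05), with a median log2 fold change of −0.03. CDHR1 (ENSDARG00000104756), a cadherin at the base of the discs, and FSCN2 (ENSDARG00000059574), an actin bundler, had the smallest p (log2 differences −0.38 and −0.45, edgeR adjusted p = 0.25 and 0.261). The other CDHR1 gene (ENSDARG00000004643) and the other FSCN2 gene (ENSDARG00000074396) stood at 0.17 and −0.11 (edgeR adjusted p = 0.48 and 0.674). Of 20 transcription factors, 0 passed by any of these tools (5 of the 20 lower at an unadjusted p under 0.05, against 8.81% of all genes), with a median of −0.17. crx, a homeobox activator of photoreceptor genes, was at 92.5, 74.2 and 82.8 CPM in the controls and 42.9, 62.2 and 70.3 CPM in the knockouts. The groups did not overlap and knockout pool 1 was lowest, with a log2 difference of −0.51 (SE 0.17, edgeR adjusted p = 0.156). NEUROD1, a factor of photoreceptor and other neural precursors, stood at −0.34 (adjusted p = 0.135).

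Photoreceptors of the pineal gland share several of these genes. Of 8 tested pineal markers, 0 passed with the same 3 tools. At an unadjusted p under 0.05, 2 were lower (crx and CRX ENSDARG00000043483), against 8.81% of all genes. The median of the pineal markers was −0.24. Their summed level was 163, 145 and 150 CPM in the controls and 94.7, 121 and 137 CPM in the knockouts, a sum in which crx and CRX were the largest parts. aanat2, the gene of an enzyme of melatonin synthesis listed as a pineal marker, was at 2.69, 3.82 and 3.92 CPM against 3.11, 2.14 and 3.47 CPM, with overlapping groups (log2 difference −0.25, edgeR adjusted p = 0.649). The part of the pineal gland in the opsin and cascade values was not tested.

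Of 19 tested non-visual opsins, 0 passed with these tools, and the median was 0.06. At an unadjusted p under 0.05, 3 were higher and 3 lower, against 6.79% and 8.81% of all genes. opn6a was at 13.1, 11.6 and 14.4 CPM in the controls and 9.54, 7.89 and 10.2 CPM in the knockouts, with no overlap (log2 difference −0.50, edgeR adjusted p = 0.0914). tmtops3b, an opsin of the teleost multiple tissue type, was at 0.710, 0.546 and 1.06 CPM against 1.30, 1.46 and 2.00 CPM, above the controls in every knockout pool (1.03, adjusted p = 0.117).

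The lists written for other cells of the eye held the listed genes that passed. In whole larvae, reads of genes on these lists can also come from other tissues. In all 13 lists, 4 of 220 tested genes (1.82%) passed with edgeR, all lower, against 4.01% of all genes. OTX2, a homeobox factor of pigment epithelium, photoreceptor and bipolar cells, fell from 42.7, 42.9 and 39.3 CPM to 18.5, 24.9 and 23.1 CPM (log2 fold change −0.91, SE 0.12, adjusted p = 0.00169). POU4F2, a factor of retinal ganglion cells, fell from 51.5, 42.7 and 44.3 CPM to 23.1, 28.3 and 32.9 CPM (−0.72, SE 0.14, adjusted p = 0.0148). EOMES (ENSDARG00000006640), also of ganglion cells, and TFAP2B, of amacrine cells, had log2 fold changes of −0.89 (SE 0.17) and −0.73 (SE 0.13), with adjusted p = 0.0128 and 0.00858. The other EOMES gene (ENSDARG00000104243) lay the other way, at 0.37 (edgeR adjusted p = 0.566). Of the 15 tested ganglion cell genes, 11 had a fold change below 0 and 4 above. OTX2, EOMES and TFAP2B are also known from brain regions outside the eye. Which tissue the reads of these genes and of POU4F2 came from was not measured.

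The calls in those marker lists are given by list, beside 2.54% of all tested genes lower and 1.47% higher with edgeR. At an unadjusted p under 0.05, the shares of all tested genes were 8.81% lower and 6.79% higher. Of 15 ganglion cell genes 2 fell (median −0.17), of 15 horizontal and amacrine genes 1 fell (median −0.14), of 17 pigment epithelium and pigment cell genes 1 fell (median −0.35), and none of these rose (0, 1 and 0 higher and 5, 3 and 6 lower at an unadjusted p under 0.05, and 0 higher with DESeq2 or limma-voom). Of 15 bipolar cell genes 0 passed with the 3 tools (2 lower at an unadjusted p under 0.05, GNG13 and GRM6 ENSDARG00000017742; median 0.00). Of 12 Muller glia genes 0 passed with edgeR or limma-voom (3 higher and 1 lower at an unadjusted p under 0.05, median 0.06), while cahz, a carbonic anhydrase, passed with DESeq2 (log2 fold change −0.55, adjusted p = 0.0296). GLUL (ENSDARG00000100003), glutamine synthetase, had a log2 difference of 0.45 (edgeR adjusted p = 0.15), and it passed without control pool 1 (0.63, adjusted p = 0.0198), as did DCT of the pigment list (−0.54, adjusted p = 0.0234). Summed levels of the pigment list were 278, 339 and 329 CPM in the controls and 278, 241 and 264 CPM in the knockouts, and those of the bipolar list 326 to 335 CPM and 305 to 336 CPM.

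Single pools differed in how often they held the extreme value. Control pool 2 was highest for 7 of the 12 genes (58.3%) and for 29 of the 86 cascade genes (33.7%), against 17.1% of all tested genes. Control pool 1 was lowest for 4 of the 12 genes (33.3%), against 20.4% of all. These were opn1lw2, GNAT1, RPE65 (ENSDARG00000054420) and RPE65 (ENSDARG00000094752). Knockout pools 2 and 3 were each lowest for 3 of the 12 (25%), against 11.9% and 13.3% of all. Of the 6 tested visual opsins, control pool 2 was highest for 6 (100%), against 17.1% of all. Knockout pool 3 was lowest for 4 of them (66.7%), against 13.3% of all. Knockout pool 2 was lowest for 24 of the 86 cascade genes (27.9%), against 11.9% of all, and knockout pool 1 for 10 of the 20 photoreceptor transcription factors (50%), against 26.6%. These are shares within single libraries, and genes of one cell type are not independent.

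The mean profile of the 12 genes over the 6 pools averages genes with unlike profiles. In knockout pool 1, the RPE65 genes stood at 0.40 to 0.47 from their control means in log2 CPM, and GNAT2 and PDE6C at −0.53 and −0.55. The mean profile stood at −0.20, 0.19 and 0.20 in the control pools and at 0.04, −0.19 and −0.04 in the knockout pools (log2 CPM from each gene's mean over all pools). Among 19573 genes with a symbol and a mean of at least 1 CPM, the profiles most like it were those of LSM4 (an RNA splicing factor), MAGOHB (of the exon junction complex), PDXP (a phosphatase), IMPDH1 (an enzyme of guanine nucleotide synthesis) and TIMM29 (of mitochondrial import). Their root mean square differences from it were 0.0208 to 0.0342 on the log2 scale over 6 pools, and none of them belongs to the light cascade lists.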

How the data were processed

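Poly(A) RNA of 6 pools of larvae, 3 per genotype, was sequenced from both ends without strand information. Each deposited value is an estimated count of a gene and is a whole number, and the submitters' processing notes name FastQC, Trim Galore, Salmon, DESeq2 and the build GRCz11. Their versions and roles are not given in the sources used here. Without strand, reads of overlapping genes cannot be told apart. Symbols came from a table that names 23598 of 25859 genes.

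Genes were kept by filterByExpr (21602 genes, 0.0516% of counts removed), scaled by TMM (factors 0.97 to 1.03) and compared with edgeR 4.0.16 (R 4.3.3) by the quasi-likelihood test, with no term besides genotype, Benjamini-Hochberg adjustment over all tested genes and a threshold of 0.05. The test was also run on simulated data, and the outcome of that run is not reported here. The biological coefficient of variation was 12.7%. SE are the size of the log2 fold change divided by the root of F, and 95% intervals use the test's degrees of freedom. Total counts set a floor of 3 counts at 0.148 to 0.162 CPM, which covers counting error only. Each pool, as 1 library of 5 larvae, was taken as 1 sample. Pools of one group differed beyond counting noise (chi-square over degrees of freedom 6.75 to 19.1).

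The genes and 13 lists (286 written symbols, 43 without a match, 235 genes, 220 tested) were chosen with earlier results of these data known. A listed symbol ending in a or b with no match was matched without that letter. Genes were named by rule: all chosen genes, up to 5 per list past the threshold or else the 2 with the smallest p, up to 10 per cascade list by mean CPM, and the 5 genes most like the mean profile (prior count 2). Some results are not reported here. CRX, DCT, PDE6B, PDE6H, grk1b and aanat2 were named after their values were seen. So were GRK1, the channel genes, the GUCA1 genes and the RDH8 gene ENSDARG00000099217. The second genes given beside EOMES, slc24a2, CDHR1, FSCN2 and RGS9 were also named after their values were seen. Alternatives were RLE and upper-quartile scaling, no filter, 1 CPM in 3 pools, a replicate block, each pool left out, DESeq2 1.42.0 and limma-voom (limma 3.58.1).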

Additional observations from a re-analysis of the deposited data

How the results depend on the processing

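With DESeq2, 8 of the 235 listed genes passed, against 4.99% of all the genes it tested. These 8 include PDE6C, the 1 of the 12 genes that passed, and the 4 listed genes that passed with edgeR. Leaving out each pool in turn gave 0 to 1 of the 12 genes, 4 to 10 listed genes, and 549 to 981 calls among all genes (189 to 346 higher, 360 to 635 lower), against 866 with all pools. Leaving out control pool 2 gave a total of 566, leaving out control pool 3 one of 549, and leaving out knockout pool 2 gave 203 higher genes. OTX2, POU4F2, EOMES (ENSDARG00000006640) and TFAP2B passed under every alternative run, with adjusted p up to 0.00625, 0.0494, 0.0428 and 0.0387. The split of all calls moved from 317 higher and 549 lower to 415 and 476 with upper-quartile scaling.

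Samples with the same replicate number had correlated deviations of −0.199, 0.1 and −0.074 (numbers 1, 2 and 3), and 1 of 3 knockout pools correlated best with its own number. The numbers were therefore not taken to pair the pools. With the replicate block 738 genes passed (251 higher, 487 lower), 0 of the 12 genes and the same count of 4 listed genes.

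The sign of the log2 difference, in genes that passed under no setting, changed for opn1sw2, GNAT1, both ARR3 genes and RPE65 (ENSDARG00000007480) under at least 1 alternative. With 3 pools per group, differences of the size measured for the cone opsins lay within the spread of the control pools. The cause of these changes was not tested.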

Other observations

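One melanopsin gene had reads in all control pools but in only 1 knockout pool. OPN4 (ENSDARG00000022098), named for the light sensor of non-visual photoreception, had 25, 23 and 17 counts in the controls and 17, 0 and 0 counts in the knockouts, in the order of pools 1, 2 and 3. A count of 0 allows up to 0.16 CPM in knockout pool 2 and 0.162 CPM in knockout pool 3 (3 counts, for counting error only), against 0.9 to 1.27 CPM in the controls. Knockout pool 1, at 0.881 CPM, lay just below the lowest control pool. The gene did not pass (edgeR adjusted p = 0.274), and it was chosen after its values were seen. It passed without knockout pool 1 (edgeR adjusted p = 0.00292). That fit leaves only the knockout pools with 0 counts, for which the gene was chosen, so its result is no support for a difference. The OPN4 gene with the most counts (ENSDARG00000007553) was at 25.0, 29.4 and 28.2 CPM in the controls and 21.6, 22.8 and 25.2 CPM in the knockouts (log2 difference −0.25, adjusted p = 0.309).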
